A study of Homo sapiens with 18 samples.

Results

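The nuclear-encoded subunits of the oxidative phosphorylation complexes were read across the 6 groups of an RNA-seq experiment in NCI-H211 cells, a small cell lung cancer line that depends on the tuft cell transcription factor POU2F3. Members were the genes whose symbols begin with NDUFA, NDUFB, NDUFC, NDUFS, NDUFV, UQCR, COX4 to COX8 or ATP5, leaving out the NDUFAF assembly factors, with a mean of at least 1 TPM (a transcript's share of the library, a level that allows for transcript length) over 18 libraries. The name rule matched 86 genes and 80 passed the level, among 13064 genes that passed it in the whole table. They comprised 37 complex I genes, 9 complex III genes, 13 complex IV genes, 19 ATP synthase genes and 2 readthrough transcripts. NDUFA4 and NDUFA4L2, named for complex I, were placed with complex IV, where the NDUFA4 protein is found. The 6 matched genes below the level, COX4I2, COX6A2, COX6B2, COX7A1, COX7B2 and COX8C, encode tissue or condition isoforms of complex IV subunits.

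The respiratory chain passes electrons from NADH through complex I, and from succinate through complex II, to ubiquinone, then through complex III and cytochrome c to complex IV, where oxygen is reduced. Complexes I, III and IV pump protons across the inner mitochondrial membrane, and ATP synthase uses the proton gradient to make ATP. Most subunits are encoded in the nucleus, imported and joined there to a small core encoded by mitochondrial DNA.

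The study compared 3 stable lines, all Cas9+, carrying an empty vector, a wild-type POU2F3 cDNA (WT) or a POU2F3 cDNA with the L191A substitution. Both cDNAs resist the POU2F3 guide, which cuts the endogenous gene. From each line, 3 separate lentiviral infections were made with a non-targeting guide (sgRosa) and 3 with a guide against POU2F3 (sgPOU2F3), at over 95% mCherry-positive cells. RNA was taken on day 5, which gave 6 groups of 3 libraries. The replicates are separate infections of 1 line each, so p-values measure the spread between infections and not between independently made lines. The total sequencing depth is unknown from TPM, and in bulk RNA fewer expressing cells and less RNA per cell cannot be told apart.

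POU2F3 itself was at 610 to 663 scaled TPM in the 3 empty-vector sgRosa libraries and at 263 to 272 in the 3 empty-vector sgPOU2F3 libraries. In the WT line it was at 1256 to 1590 under sgRosa and 1013 to 1588 under sgPOU2F3. In the L191A line it was at 347 to 1067 under sgRosa and 605 to 668 under sgPOU2F3. These ranges include the 2 libraries set apart in the next paragraph. Without those 2, POU2F3 fell under sgPOU2F3 in the L191A line (-0.562, limma adjusted p = 0.0099). In the WT line it did not pass the test (-0.345, limma adjusted p = 0.074). TPM joins the cDNA and the endogenous transcript. All 8 listed markers of POU2F3-positive small cell lung cancer passed the level, among them TRPM5, a tuft cell ion channel. Of the neuroendocrine markers, NEUROD1 reached at most 1.99 scaled TPM in any library. INSM1 was at 4.58 to 5.84 scaled TPM in empty-vector sgRosa libraries and was the one neuroendocrine marker tested. It fell under sgPOU2F3 in the L191A line (-0.80) and was lower in L191A than in WT cells under sgPOU2F3 (-0.55).

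Of the 18 libraries, L191A sgRosa replicate 1 and WT sgPOU2F3 replicate 1 stood apart. Members took 5.83% and 3.73% of all TPM there, against 2.21% to 3.46% in the other 16 libraries. Short transcripts as a whole were high in both: the slope of all other genes on transcript length was -0.67 and -0.25 log2 units per doubling of length, against -0.14 to 0.14 in the other 16. Members are short, with a median transcript length of 750 bases against 2512 for all genes tested, and 77 of the 80 lay below that median. The 16 other libraries were therefore used for the values below unless stated, and the results with all 18 are given beside them. All values are TPM divided by a median-ratio factor for each library ("scaled TPM"), and tests are limma on log2(scaled TPM + 1), with Benjamini-Hochberg adjustment over the 13064 genes and a call at an adjusted p of at most 0.05.

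Within the 16 libraries the members' level also moved with the length slope. Of the 6 libraries with a slope above 0, all 6 had a member median below its mean over 16 libraries, and of the 10 with a slope below 0, all 10 had one above it. The member median ran from -0.70 in WT sgRosa replicate 1, which had the highest slope of the 16 (0.14), to 0.39 in empty-vector sgPOU2F3 replicate 1, which had the lowest (-0.14). All 3 WT sgRosa libraries had slopes above 0 and both WT sgPOU2F3 libraries had slopes below 0. The part of transcript length in the group differences was not tested. The total of members called in each comparison is therefore also given after each library's length trend was removed by lowess.

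**Figure D1:**
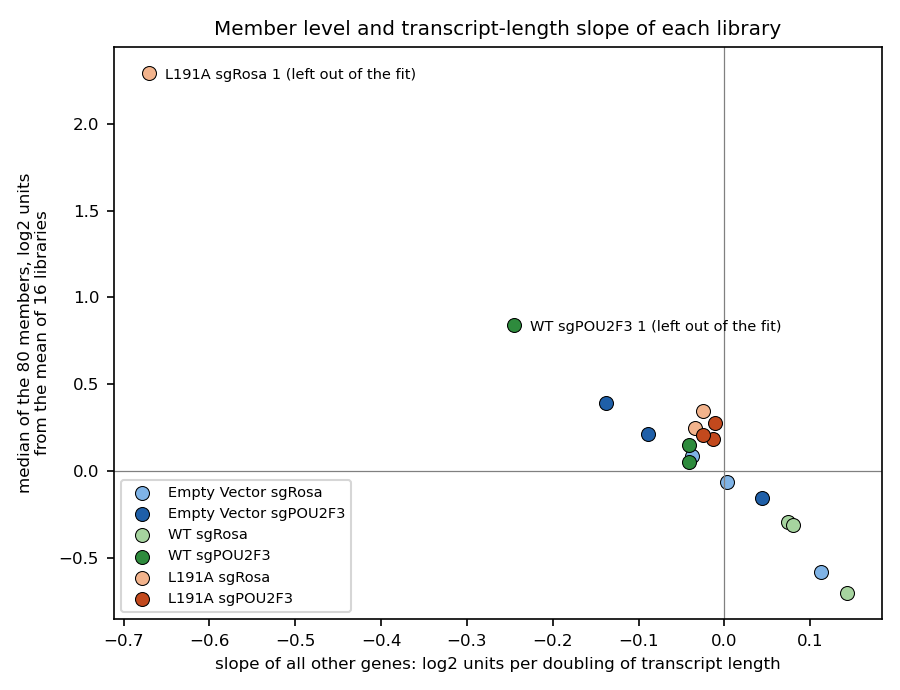
Each point is 1 library. The horizontal axis is the slope of log2 level on log2 transcript length over all genes but the members, and the vertical axis is the median deviation of the 80 members from their mean in 16 libraries, both in log2 units. The 2 labelled libraries reach 0.84 and 2.29, and within the other 16 the points run from 0.39 at negative slopes to -0.70 at positive slopes.

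Promoter sequence is shown first for the genes on which the results turn. NDUFA4L2 and NDUFA5 are the 2 members that fell under sgPOU2F3 in the empty-vector line, and NDUFS6 and NDUFS7 are 2 that rose there. The last pair was chosen for display after the motif search, because both windows hold a core site of NRF1, a transcription factor of respiratory genes. RefSeq windows on GRCh38.p14 were matched for 66 of the 80 members (82.5%), and the 250 bases before each annotated start are printed 5′ to 3′ on the gene's strand, with motif matches in capitals. They lie at chr12:57240763-57241012 (minus strand, NDUFA4L2), chr7:123601652-123601901 (minus strand, NDUFA5), chr5:1801157-1801406 (plus strand, NDUFS6) and chr19:1383657-1383906 (plus strand, NDUFS7).
NDUFA4L2: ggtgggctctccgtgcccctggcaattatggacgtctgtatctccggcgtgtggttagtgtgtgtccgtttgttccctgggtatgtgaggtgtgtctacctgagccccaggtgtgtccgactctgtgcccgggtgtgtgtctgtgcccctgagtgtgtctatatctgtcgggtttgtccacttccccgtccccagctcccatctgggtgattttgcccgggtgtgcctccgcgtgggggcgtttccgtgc
NDUFA5: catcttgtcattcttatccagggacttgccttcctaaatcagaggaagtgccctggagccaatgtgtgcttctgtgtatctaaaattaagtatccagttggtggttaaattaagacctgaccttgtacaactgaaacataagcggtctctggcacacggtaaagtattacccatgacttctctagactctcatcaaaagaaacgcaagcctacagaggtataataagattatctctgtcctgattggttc
NDUFS6: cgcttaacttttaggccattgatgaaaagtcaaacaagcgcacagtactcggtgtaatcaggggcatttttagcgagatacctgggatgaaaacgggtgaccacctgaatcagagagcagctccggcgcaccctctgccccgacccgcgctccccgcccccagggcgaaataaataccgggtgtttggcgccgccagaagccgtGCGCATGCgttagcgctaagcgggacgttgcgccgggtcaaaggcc
NDUFS7: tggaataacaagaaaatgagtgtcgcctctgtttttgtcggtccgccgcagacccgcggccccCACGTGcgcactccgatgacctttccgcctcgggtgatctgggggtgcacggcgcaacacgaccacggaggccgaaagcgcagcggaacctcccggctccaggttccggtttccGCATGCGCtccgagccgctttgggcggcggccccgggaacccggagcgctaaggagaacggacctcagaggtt
In NDUFS6 the capitals mark the NRF1 core on the minus strand, which begins 46 bases before the start. In NDUFS7 they mark the NRF1 core 73 bases before the start and, further upstream, CACGTG. This stretch reads the same on both strands, so ACGTG, a form of the core bound by hypoxia-inducible factors, matches on each. The 2 matches are therefore a single stretch, and which factor binds it was not tested. No searched motif lay in the NDUFA4L2 or NDUFA5 window. Only the exact letters of each motif were searched, so other forms of these sites are not covered.

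On both strands of the 300-base windows (250 bases before the start and 50 after), the NRF1 core GCATGCGC was in 11 of the 66 members (16.7%), against 5.5% of the windows of genes tested and 3.3% of all windows. The YY1 core AAGATGGCG was in 10.6% of members, 3.8% of genes tested and 1.8% of all windows. The ETS core CCGGAAG, the site type of the GABP complex, was in 27.3%, 19.2% and 10.7%. ACGTG was in 27.3%, 26.3% and 21.6%. The octamer ATGCAAAT, the site type of POU2 factors, was in 0 of 66 members, 1.5% of genes tested and 1.8% of all windows. A match describes these letters in these windows only.

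Members were abundant, with a median mean level of 241.5 TPM against 20.72 for all genes tested. The lowest were the readthroughs NDUFC2-KCTD14 (1.641 TPM) and ATP5MF-PTCD1 (5.412 TPM) and the gene copies UQCRHL (2.626 TPM) and ATP5MGL (7.773 TPM), for which reads may be shared with the parent genes. The highest were ATP5F1E, the epsilon subunit of the ATP synthase central stalk, at 1635 TPM, and the complex IV subunit COX6C at 1512 TPM. Subunits of 1 complex differed widely: in complex I, NDUFV3 averaged 50.05 TPM and NDUFB9 averaged 1398 TPM. These averages cover all 18 libraries, and many of these genes have processed copies elsewhere in the genome that could share reads. Over the 16 libraries, the median member's highest library was 2.41 times its lowest. The widest such range, 12.9 times, was that of NDUFA4L2 among members above 0 in every library.

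**Figure D2:**
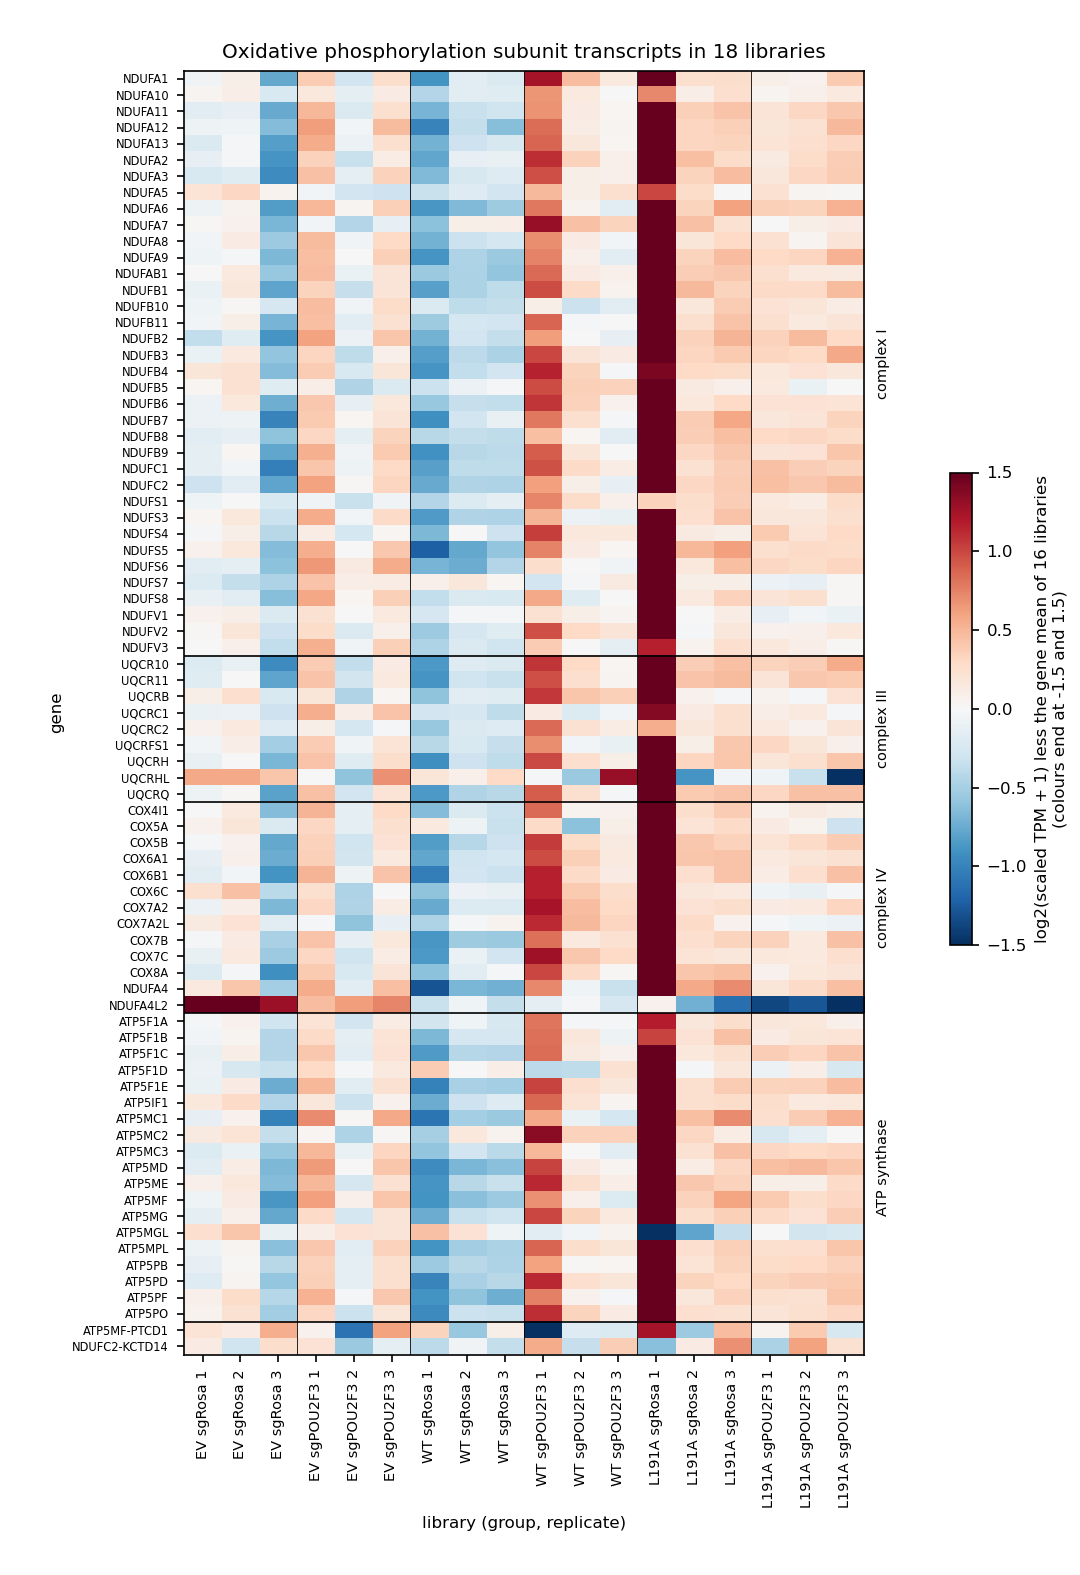
Heatmap of members (vertical axis, by complex) in 18 libraries (horizontal axis). Colour is log2(scaled TPM + 1) less the gene's mean in the 16 libraries used for the fit. Most members are low in the 3 WT sgRosa libraries and in empty-vector sgRosa replicate 3. They are high in WT sgPOU2F3 replicate 1 and L191A sgRosa replicate 1. The NDUFA4L2 row is high in the empty-vector line and low in the L191A line, with sgRosa replicate 1 of that line the exception.

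In each of the 4 complexes the mean summed member level was lowest in WT sgRosa cells and highest in L191A sgRosa cells. Complex I sums were 7745 ± 1833 scaled TPM in empty-vector sgRosa cells and 10246 ± 1967 in empty-vector sgPOU2F3 cells (SD, n = 3 each). They were 6493 ± 960 in WT sgRosa cells (n = 3) and 9519 ± 635 in WT sgPOU2F3 cells (n = 2). They were 11231 ± 405 in L191A sgRosa cells (n = 2) and 10461 ± 399.8 in L191A sgPOU2F3 cells (n = 3). The 3 WT sgRosa sums, 5385, 7004 and 7089, lay below both WT sgPOU2F3 sums, 9968 and 9070, whereas the 2 empty-vector groups overlapped: sgRosa gave 8432, 9136 and 5669, and sgPOU2F3 gave 11991, 8115 and 10632. ATP synthase sums ran from 5833 ± 948 in WT sgRosa to 10081 ± 484 in L191A sgRosa cells. Complex IV sums ran from 6261 ± 1111 to 10224 ± 158.6, and complex III sums from 1545 ± 264 to 2635 ± 135, in those 2 groups. With L191A sgRosa replicate 1, the complex I sum of that library alone was 47263.

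In the empty-vector line, which asks what the POU2F3 guide does where only endogenous POU2F3 is present, 26 members rose under sgPOU2F3 and 2 fell, with a median log2 change of 0.33. These 28 were 35.0% of the members, against 55.2% of all genes tested, whose median was -0.004. By complex, 17 of 37 complex I genes rose and NDUFA5 fell, 1 of 9 complex III genes rose, 1 of 13 complex IV genes rose and NDUFA4L2 fell, and 7 of 19 ATP synthase genes rose. In the membrane arm of complex I, 10 of 21 accessory genes rose and none fell. In the core N module, which takes electrons from NADH, 0 of 3 were called by limma.

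The largest rises in the empty-vector line were those of NDUFB2, a membrane-arm accessory subunit (log2 change 0.80), and ATP5MC1, a gene for the c ring that turns with proton flow (0.79). NDUFB2 was at 276.6, 314.4 and 192.9 scaled TPM in sgRosa and at 544.9, 337.9 and 480.0 in sgPOU2F3 libraries, so its groups did not overlap. ATP5MC1 was at 346.6, 394.6 and 187.6 in sgRosa and at 619.8, 382.4 and 562.3 in sgPOU2F3 libraries, and 1 sgPOU2F3 library lay within the sgRosa range. NDUFS6, a zinc-binding N-module accessory subunit whose promoter is printed above, rose by 0.76 (limma adjusted p = 3.3e-04). NDUFS7, the core subunit that holds the last iron-sulfur cluster before ubiquinone, was at 85.76, 77.05 and 71.8 in sgRosa and at 133.9, 106.2 and 107.4 in sgPOU2F3 libraries, a rise of 0.56 without overlap (limma adjusted p = 1.6e-04). NDUFS8, its core neighbour, rose by 0.63, and the complex III core protein UQCRC1 rose by 0.52. Its partner UQCRC2 did not pass the test (-0.07).

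NDUFA5, an accessory subunit next to the quinone-binding module, went the other way from most of complex I. It was at 54.5, 58.97 and 49.05 scaled TPM in sgRosa and at 45.68, 38.65 and 37.89 in sgPOU2F3 libraries of the empty-vector line, a log2 change of -0.40 ± 0.10 (SE) with a limma adjusted p of 0.0032. All 3 sgPOU2F3 values lay below all 3 sgRosa values.

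With the length trend removed, 28 members rose and 8 fell in the empty-vector line (57.9% of all genes called), and 26 of the 28 calls were kept; the median fell from 0.33 to 0.19. With all 18 libraries, 1 of 80 members was called, NDUFA4L2, against 26.4% of all genes. Single libraries also moved the count: 45 were called without sgRosa replicate 2 and 12 without sgRosa replicate 3. Without sgPOU2F3 replicate 1, 2 or 3 the counts were 13, 50 and 18. Here and below, the share of all genes called with a single library left out is not given. Such counts are therefore not read as particular to the members.

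In the WT line, where a wild-type cDNA was carried along with the endogenous gene, 42 members rose and none fell, with a median of 0.55. The 42 were 52.5% of the members, against 25.7% of all genes tested, whose median was -0.006. By complex, 20 of 37 complex I, 5 of 9 complex III, 7 of 13 complex IV and 10 of 19 ATP synthase genes rose. All 4 peripheral-stalk genes of ATP synthase rose, as did 4 of 5 genes of its membrane part, and 0 of 3 c-ring genes passed the test.

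The largest rise was that of NDUFS5, a membrane-arm subunit on the intermembrane side, whose log2 change was 0.94 ± 0.22 (SE), with an adjusted p of 0.010 in limma. Its level was at 304.5, 417.5 and 470.0 scaled TPM in sgRosa and at 776.2 and 725.9 in sgPOU2F3 libraries. ATP5F1E rose by 0.88, the small membrane subunit ATP5MPL by 0.85, the complex IV subunit COX7B by 0.84 and the peripheral-stalk subunit ATP5PD by 0.84. COX7B was at 441.0, 558.1 and 551.2 in sgRosa and at 897.4 and 948.9 in sgPOU2F3 libraries. NDUFS1, the largest core subunit of the N module, rose by 0.44, from 134.8, 158.2 and 167.1 to 222.3 and 192.9. UQCRC2 rose by 0.49. The values of NDUFS5, COX7B and NDUFS1 did not overlap between guides. NDUFS1 and UQCRC2 were the 2 members still called with all 18 libraries.

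After length removal 30 members rose in the WT line and 2 fell (25.3% of all genes called); 29 of the 42 calls were kept and the median was 0.29. The 2 that fell were ATP5F1D, of the ATP synthase central stalk, and COX5A, a complex IV subunit, at -0.24 and -0.18 before removal and -0.58 each after it. With all 18 libraries 2 members were called against 12.6% of all genes. Without WT sgRosa replicate 1, WT sgPOU2F3 replicate 2 or WT sgPOU2F3 replicate 3, the counts were 6, 0 and 11. Where leaving out a library left 1 in a group, as for WT sgPOU2F3 here and L191A sgRosa below, that library was assumed to vary like the other groups. Cytosolic ribosomal protein genes, also short, moved with the members in this line: 39 of 82 rose, with a median of 0.65, and 31 rose after length removal. In the empty-vector line 3 of 82 rose and 2 fell, with a median of -0.016.

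In the L191A line 0 of 80 members were called by limma, 2 had an unadjusted p under 0.05, and the median was -0.085; 15.3% of all genes were called. The 2 were NDUFA4L2 (-0.47) and ATP5MGL (0.40). With the length trend removed, 1 member rose, ATP5MD, a small membrane subunit of ATP synthase (17.7% of all genes). With all 18 libraries NDUFA4L2 alone was called, at -0.81 (9.65% of all genes). NDUFS5, the leading gene of the WT line, was at 1001 and 1086 scaled TPM in L191A sgRosa and at 838.0, 868.8 and 861.6 in sgPOU2F3 libraries.

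**Figure D3:**
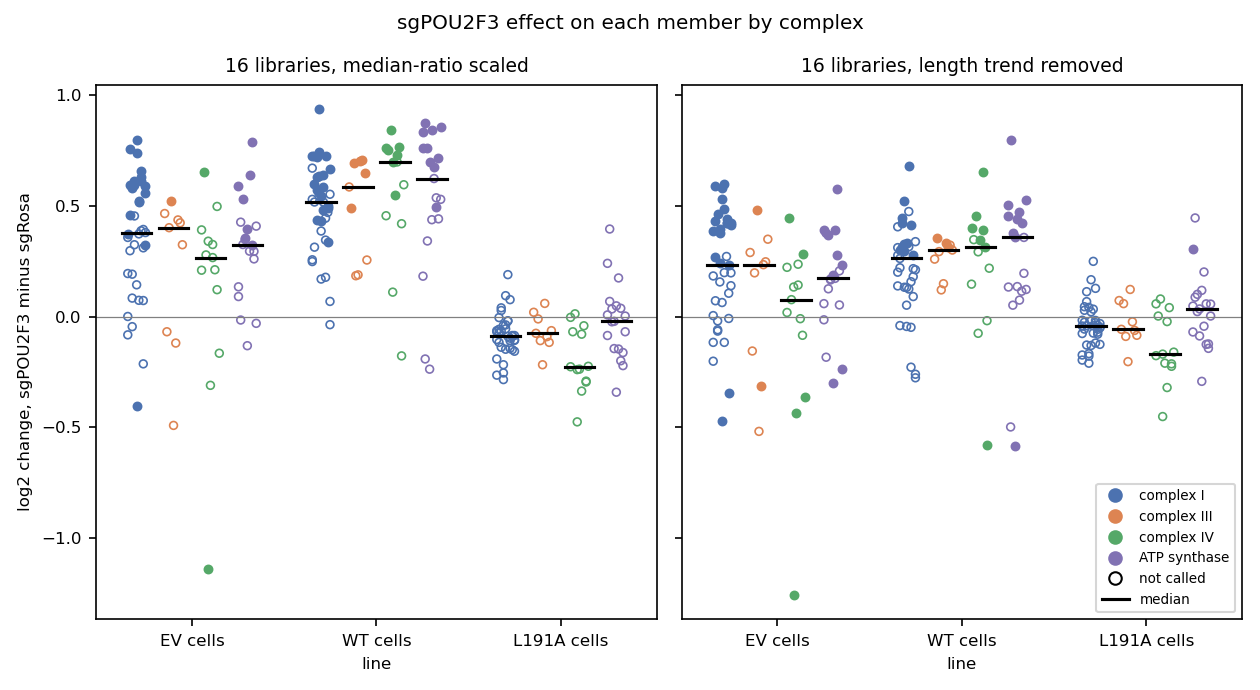
Each point is 1 member, the vertical axis is its log2 change under sgPOU2F3, and columns are the 4 complexes within each line, with medians as bars. In the left panel the complex medians lie at 0.27 to 0.40 in the empty-vector line, 0.52 to 0.70 in the WT line and -0.23 to -0.02 in the L191A line; the right panel repeats them with the length trend removed.

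The differences between lines were tested directly. The WT effect exceeded the empty-vector effect for 7 members and fell short of it for 2 (34.3% of all genes called), with a median difference of 0.26. The 7 were NDUFA4L2 (1.25), COX7A2L (0.86), NDUFA5 (0.84), UQCRB (0.82), NDUFB5 (0.71), UQCRC2 (0.56) and NDUFS1 (0.48). COX7A2L is a factor for joining complexes III and IV into supercomplexes, UQCRB a quinone-site subunit of complex III and NDUFB5 a membrane-arm subunit. The 2 were NDUFS7 and ATP5F1D, at -0.59 each. All 9 were also called after length removal, when 12 were higher and 10 lower (38.8% of all genes), and 2 were called with all 18 libraries (15.2%). Without empty-vector sgRosa replicate 3 the count was 28, and without WT sgPOU2F3 replicate 2 it was 4.

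NDUFA5 moved in opposite directions in the 2 lines. In the WT line it was at 37.08, 41.21 and 38.58 scaled TPM under sgRosa and at 50.2 and 55.71 under sgPOU2F3, a rise of 0.43, where it had fallen by 0.40 in the empty-vector line. NDUFS7, which rose in the empty-vector line, did not pass the test in the WT line, where it was at 104.0, 111.7 and 100.7 under sgRosa and at 96.78 and 109.0 under sgPOU2F3 (-0.04), values that overlap. COX7A2L was at 394.4, 415.7 and 319.7 in empty-vector sgRosa and at 353.2, 236.2 and 328.9 in empty-vector sgPOU2F3 libraries, which overlap, and at 260.1, 354.6 and 370.8 in WT sgRosa and 504.0 and 448.2 in WT sgPOU2F3 libraries, which do not.

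The L191A effect was lower than the empty-vector effect for 7 members and higher for none (29.0% of all genes called): NDUFB2, NDUFS6, NDUFS8, NDUFS7, NDUFC2, UQCRC1 and NDUFB8, by 0.57 to 0.85 in size. Of the 7, 6 belong to complex I. After length removal 15 were lower and 4 higher, including these 7 (31.9%), and with all 18 libraries none was called (12.2%). The count was 17 without empty-vector sgRosa replicate 2 and 28 without empty-vector sgPOU2F3 replicate 2. It was 4 without empty-vector sgPOU2F3 replicate 3 or L191A sgPOU2F3 replicate 1 or 3, and 1 without L191A sgRosa replicate 3.

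The L191A effect was lower than the WT effect for 7 members and higher for none (14.6% of all genes), with a median difference of -0.62. These were NDUFS5 (-1.22), ATP5MPL (-0.85), the mitochondrial acyl carrier protein NDUFAB1 (-0.85), COX7B (-0.83), ATP5PD (-0.79), COX7A2L (-0.79) and NDUFS1 (-0.57). After length removal 5 were lower and 1 higher (15.4%), with 5 of the 7 calls kept. With all 18 libraries 4 were lower (13.1%). Leaving out single libraries gave 0 to 6 calls: 0 without WT sgPOU2F3 replicate 2, 1 without WT sgRosa replicate 1, either L191A sgRosa library or L191A sgPOU2F3 replicate 1 or 2, 2 without WT sgPOU2F3 replicate 3 or L191A sgPOU2F3 replicate 3, and 3 without WT sgRosa replicate 2.

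NDUFA4L2 was the member with the widest range over the groups. Its protein is a paralogue of NDUFA4 and is known as a hypoxia-inducible factor target that lowers complex I activity. The gene lies at chr12:57234903-57240715 on the minus strand. In the empty-vector line it was at 183.6, 165.4 and 107.4 scaled TPM under sgRosa and at 60.27, 67.56 and 72.87 under sgPOU2F3, a fall of 1.14 ± 0.17 log2 units (SE), to 0.454 of the sgRosa level on the scale of TPM + 1 (limma adjusted p = 3.3e-05). The groups did not overlap. In the WT line it was at 34.26, 41.46 and 33.5 under sgRosa and at 42.48 and 36.22 under sgPOU2F3, with 38.97 in the library left out, and did not pass the test (0.11). In the L191A line it was at 25.91 and 19.32 under sgRosa, with 45.39 in the library left out, and at 16.21, 17.22 and 14.18 under sgPOU2F3 (-0.47, limma adjusted p = 0.10).

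Between lines, the WT sgRosa level of NDUFA4L2 was below the empty-vector sgRosa level by 2.00 ± 0.17 log2 units (limma adjusted p = 1.8e-07). Under sgPOU2F3 the WT level was lower than the empty-vector level (-0.75), and the L191A level was lower than the WT level (-1.26). All 4 of these calls, the empty-vector effect included, held with all 18 libraries, with adjusted p from 3.2e-05 to 0.027. Of them, 3 (the empty-vector effect, WT against empty vector under sgRosa and L191A against WT under sgPOU2F3) were the only named results of 61 called that passed under every alternative run. Each line is a separate stable line, so a difference between lines cannot be told apart from a difference between the cells that founded them.

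Its paralogue NDUFA4 did not follow the same order. It was at 463.6, 557.0 and 294.2 scaled TPM in empty-vector sgRosa, 616.6, 374.7 and 573.7 in empty-vector sgPOU2F3, 170.1, 259.3 and 253.4 in WT sgRosa, and 399.7 and 330.9 in WT sgPOU2F3 libraries. In the L191A line it was at 622.3 and 684.1 under sgRosa and at 474.3, 509.8 and 570.7 under sgPOU2F3. In the 16 libraries the L191A line had the lowest NDUFA4L2. Its NDUFA4 values lay above those of the WT line under both guides, but under sgPOU2F3 they lay within the empty-vector range. Levels in the L191A line were not tested against the empty vector. Of the 6 comparisons between groups, NDUFA4 passed in 1, WT below empty vector under sgRosa (-0.92). COX4I2, another isoform known to respond to oxygen, was listed at 1.27, 1.21 and 0.752 scaled TPM in empty-vector sgRosa libraries and at 0 in all 3 empty-vector sgPOU2F3 and all 3 WT sgRosa libraries. It was at 0.407 and 0.273 in WT sgPOU2F3 replicates 2 and 3 and at 1.33 in L191A sgRosa replicate 1 and 0.595 in replicate 2, all levels near the lower limit of the table, and it was not tested.

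**Figure D4:**
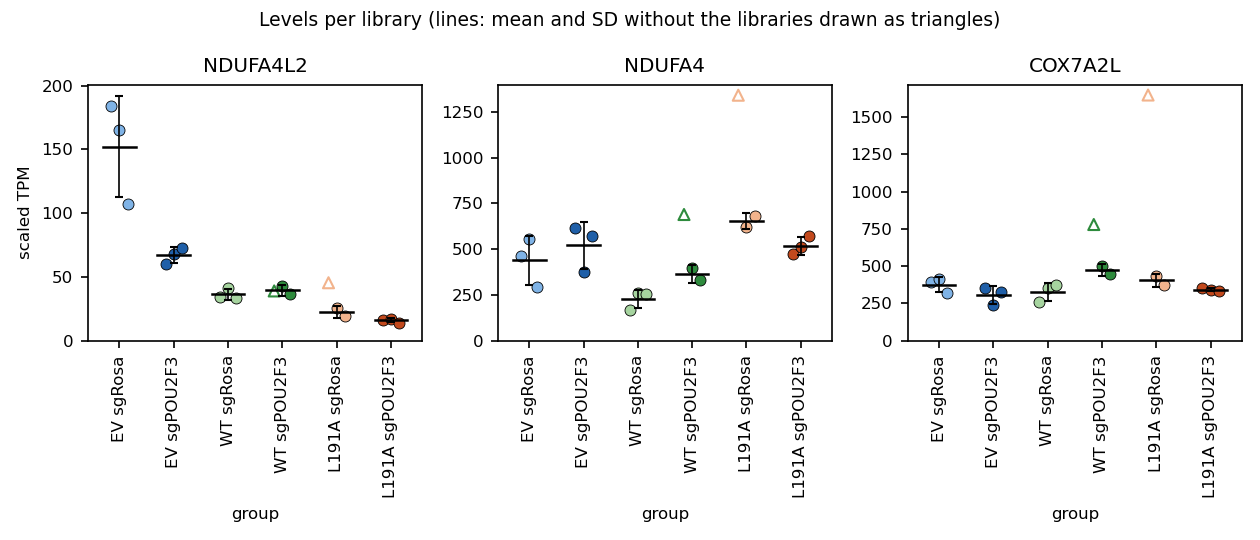
Scaled TPM (vertical axes, from 0) of NDUFA4L2, NDUFA4 and COX7A2L in each library of the 6 groups (horizontal axes). Bars are the mean and SD without the 2 libraries drawn as triangles. NDUFA4L2 is highest in the 3 empty-vector sgRosa libraries, 107.4 to 183.6, and lowest in the L191A sgPOU2F3 libraries, 14.18 to 17.22.

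WT against empty vector under sgRosa, which compares the 2 lines under the control guide, gave 2 members higher and 10 lower (42.5% of all genes called), with a median of -0.24. After NDUFA4L2 and NDUFA4 the largest were ATP5PF, of the peripheral stalk, and NDUFS5, at -0.72 each, and the 2 higher were NDUFS7 (0.43) and ATP5F1D (0.38). After length removal 4 were higher and 20 lower, including all 12 (45.5%), and with all 18 libraries NDUFA4L2 alone was called (13.1%). The count was 44 without empty-vector sgRosa replicate 3, and 6 without empty-vector sgRosa replicate 2 or WT sgRosa replicate 1.

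Listed markers of other cells also differed between these 2 lines. LIN28B, an RNA-binding protein listed for an embryonic kidney packaging line, was at 0.291, 0.234 and 0.326 scaled TPM in empty-vector sgRosa and at 22.18, 24.61 and 28.36 in WT sgRosa libraries (4.34, limma adjusted p = 2.5e-13). HOXA10 and HOXC10 of the same list were lower (-0.24 and -0.62), HOXA9 did not pass the test, and HOXD10 reached at most 0.377. The summed level of the 5 genes was 81.2 to 85.71 in empty-vector sgRosa and 78.52 to 88.49 in WT sgRosa libraries. Of 3 lymphoid and myeloid markers tested, CD14 was higher in WT cells (1.56). The summed level of the 5 listed was 8.37 to 8.74 in empty-vector sgRosa and 11.23 to 14.38 in WT sgRosa libraries, with CD3E listed at 0 in every library. Their part in the members' differences between lines was not tested.

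Under sgPOU2F3, 6 members were higher and 5 lower in WT than in empty-vector cells (50.4% of all genes), with a median of -0.033. COX7A2L (0.65), the N-module accessory subunit NDUFA7 (0.59) and NDUFB5 (0.54) were the highest. NDUFA4L2, NDUFS6 (-0.48) and UQCRC1 (-0.48) were the lowest. After length removal 10 were higher and 17 lower (54.1%), and with all 18 libraries 2 were called (30.5%), where the median turned to 0.22. Without empty-vector sgPOU2F3 replicate 2 the count was 18, and without WT sgPOU2F3 replicate 2 it was 3.

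L191A against WT under sgPOU2F3 gave 2 members higher, NDUFC2 (0.46) and NDUFB10 (0.42), both of the complex I membrane arm. It gave 3 lower, among them NDUFA4L2 and COX7A2L (-0.47), against 44.4% of all genes called. After length removal 18 were higher and 8 lower (49.4%), and with all 18 libraries NDUFA4L2 alone was called (22.1%). The median turned from 0.12 to -0.10 there. The count was 2 without WT sgPOU2F3 replicate 2 or 3 or L191A sgPOU2F3 replicate 2, 1 without L191A sgPOU2F3 replicate 1, and 3 without L191A sgPOU2F3 replicate 3. The comparisons within a guide and the effects within a line share libraries.

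Not all subunits classed here as core passed the test. In the empty-vector line 3 of 10 core subunits of complexes I and III rose (NDUFS7, NDUFS8 and UQCRC1), against 55.2% of all genes called. In the WT line 4 of 10 rose (NDUFS1, NDUFS3, NDUFV2 and UQCRC2), against 25.7%, and NDUFS3 was not called after length removal. Of these 7, the difference between the 2 effects was called for NDUFS7, NDUFS1 and UQCRC2 and not for the other 4. The head subunits ATP5F1A and ATP5F1B and the rotor shaft ATP5F1C were at 0.09, 0.26 and 0.30 in the empty-vector line, none called, and at 0.18, 0.44 and 0.67 in the WT line, where ATP5F1C rose. NDUFV1, which binds NADH, was at 0.14, 0.17 and -0.15 in the empty-vector, WT and L191A lines and was not called. COX4I1 and COX5A were not called in any line before length removal, after which COX5A was called lower in the WT line.

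Other genes of respiration were read by the same test, against 55.2%, 25.7% and 15.3% of all genes called under sgPOU2F3 in the empty-vector, WT and L191A lines. Of 49 assembly factors tested, 22 rose and 7 fell in the empty-vector line, a share near that of all genes, and 22 rose and 10 fell after length removal. The WT line had 19 rises and 1 fall, and 11 rose and 1 fell after length removal. In the L191A line none was called. The empty-vector rises included SCO2, a copper chaperone for complex IV (0.94), and NDUFAF4, a complex I factor (0.80). The falls included LYRM7, a complex III chaperone (-0.63), which fell in the WT line too (-0.38).

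In complex II, 0 of 4 genes were called in the empty-vector line, and 1 rose after length removal. SDHB (0.60) and SDHD (0.56) rose in the WT line, and 2 rose after length removal. Of 10 citric acid cycle genes, 3 rose in the empty-vector line, 4 in the WT line and 1 in the L191A line, and 3, 5 and 1 after length removal. Cytochrome c (CYCS) rose by 0.43 and 0.64 in the empty-vector and WT lines. CYC1 (0.215) and ATP5IF1 (0.53), listed with it, did not pass the test in the WT line. The name rule does not match CYC1, so it is not among the complex III genes above. Of 11 mitochondrial carrier and import genes, 6 rose and 1 fell in the empty-vector line, led by TOMM40, the import channel (1.26). The WT line had 3 rises, near the share of all genes, and 2 after length removal. In the L191A line 1 fell.

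Of 14 regulators of respiratory genes tested, 8 rose and 1 fell in the empty-vector line, a share near that of all genes, and 9 rose and 1 fell after length removal. PPRC1, a PGC-1-related coactivator, rose by 0.78, the nuclear receptor ESRRA by 0.63 and the mitochondrial RNA polymerase POLRMT by 0.50. NRF1 rose by 0.27, and GABPA, the DNA-binding subunit of the GABP complex, fell by 0.40. HIF1A mRNA rose by 0.50 in the empty-vector line, from 128.6, 130.2 and 145.3 to 188.9, 187.4 and 197.2 scaled TPM, and by 0.73 in the L191A line, where MYC fell by 0.60. The regulators that rose in the WT line were 3, GABPB1, TFB1M and TFB2M. After length removal the 3 were TFB1M, GABPA and TFAM. The mitochondrially encoded subunits were not analysed here.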

How the data were processed

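RNA of 18 libraries was prepared with TruSeq v2, per the labels' protocols, and kallisto and the build hg38 are named in the submitters' processing notes. The authors deposited 1 table of TPM, a length-adjusted unit that keeps no read depth, and how transcripts were joined to genes is not given in the sources used here. Of 19875 entries, 134 name no gene (27 dates, 107 text fragments; 1.65% to 2.44% of TPM) and were left out. TPM was divided by median-ratio factors from 12908 genes above 0 in every library. Log2(scaled TPM + 1) of 13064 genes (mean of at least 1 TPM) was fitted with limma 3.58.1 in R 4.3.3, with 1 coefficient per group and an intensity trend. The fit was tested on simulated data that held no transcript-length trend, so that test does not bear on such a trend. Gene positions are from GENCODE v29, and transcript lengths covered 98.0% of genes tested. Length trends were lowess fits with a span of 0.3. Named genes were core subunits and isoforms, the 3 smallest p per complex and guide effect among calls, the 3 largest changes each way elsewhere, and each complex's extremes in the empty-vector line. Others given in the text were named after their values were seen. The members and lists were chosen with earlier results of these data known. Alternatives covered libraries, scaling, length, filter, pseudocount, variance prior, samples in the fit and replicate number. Some genes are not reported here and are left out of the heatmap.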

Additional observations from a re-analysis of the deposited data

Results flagged for a closer look

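For 23 results on members, the change under sgPOU2F3 differed between 2 lines by a test of the difference itself in limma (adjusted p at most 0.05, 16 libraries). The WT effect less the empty-vector effect was 1.25 log2 units for NDUFA4L2, 0.86 for COX7A2L, 0.84 for NDUFA5, 0.82 for UQCRB, 0.71 for NDUFB5, 0.56 for UQCRC2 and 0.48 for NDUFS1. It was -0.59 for NDUFS7 and -0.59 for ATP5F1D. The L191A effect less the empty-vector effect was -0.85 for NDUFB2, -0.76 for NDUFS6, -0.73 for NDUFS8, -0.71 for NDUFS7, -0.64 for NDUFC2, -0.63 for UQCRC1 and -0.57 for NDUFB8. The L191A effect less the WT effect was -1.22 for NDUFS5, -0.85 for ATP5MPL, -0.85 for NDUFAB1, -0.83 for COX7B, -0.79 for ATP5PD, -0.79 for COX7A2L and -0.57 for NDUFS1. The smallest adjusted p were 6.5e-04 (NDUFA5, WT less empty vector) and 0.0013 (NDUFA4L2, the same difference), and the largest was 0.0485 (ATP5PD). In these 3 comparisons 9, 7 and 7 of the 80 members were called, against 34.3%, 29.0% and 14.6% of all genes tested. With all 18 libraries the calls numbered 2, 0 and 4, against 15.2%, 12.2% and 13.1% of all genes. The members' level moved with the length slope of the libraries, whose part in these differences was not tested.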

How the results depend on the processing

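The counts of members called depended on the libraries. Shares of all genes called under the same alternatives are not given in this section, so the counts are not read as particular to the members. In the order empty-vector, WT and L191A effect, WT against empty vector and L191A against WT under sgPOU2F3, WT against empty vector under sgRosa, and the differences WT less empty vector, L191A less empty vector and L191A less WT, they were 28, 42, 0, 11, 5, 12, 9, 7 and 7. With all 18 libraries they were 1, 2, 1, 2, 1, 1, 2, 0 and 4. With L191A sgRosa replicate 1 alone left out, the empty-vector effect gave 16, the WT effect 67, WT against empty vector under sgRosa 7, L191A less empty vector 3 and L191A less WT 17. With WT sgPOU2F3 replicate 1 alone left out, they were 1, 0, 0 (WT against empty vector under sgPOU2F3), 1, 1, 1, 0 and 0, the L191A effect aside. All 18 libraries with TPM as deposited gave 7 and 2 for the first 2 effects, 3 under sgRosa, and 1, 1 and 4 for the differences. Left-out single libraries of the 16 gave 12 to 50, 0 to 39, 0, 3 to 18, 1 to 3, 6 to 44, 4 to 28, 1 to 28 and 0 to 6.

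TPM as deposited in 16 libraries gave 25 and 20 under sgPOU2F3, and 14 for each difference from the empty vector. Quantile normalization gave 1 in the L191A line, 17 and 8 under sgPOU2F3, and 17 and 11 for the differences from the empty vector. With no filter the WT effect gave 22, L191A against WT 3, L191A less empty vector 4 and L191A less WT 2. With only the groups compared, the empty-vector effect gave 12, the L191A effect 6, L191A against WT 29 and L191A less WT 60. Length removal gave 1 in the L191A line, 27, 26 and 24 in the 3 comparisons of lines, and 22 and 19 for the differences from the empty vector. Length removal in all 18 libraries gave 12 and 23 for the first 2 effects, 19 and 10 under sgPOU2F3, and 14 for L191A less WT.

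The median change of members turned sign in WT against empty vector under sgPOU2F3 (-0.033): 0.222 with all 18 libraries and with L191A sgRosa replicate 1 alone left out, 0.020 in 18 libraries as deposited, 0.051 by quantiles, 0.050 in 18 libraries without the length trend, and 0.078 and 0.029 without empty-vector sgPOU2F3 replicate 1 or 3; over all single libraries left out it ran from -0.177 to 0.078. For L191A against WT (0.119) it was -0.101 with all 18 libraries and with L191A sgRosa replicate 1 alone left out. That library is in neither group of these comparisons under sgPOU2F3, so leaving it out only repeats the 18-library median. Of the libraries set apart, only WT sgPOU2F3 replicate 1 enters these medians. The cause of the turns in sign was not tested. Of 61 called results on named members, none reversed, 3 (all NDUFA4L2) passed everywhere, 51 were lost with all 18 libraries and 1 with the length trend removed.

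Replicate numbers did not pair the libraries: same-numbered pairs had a median correlation of deviations of -0.0355 (36 pairs, -0.600 to 0.223), and 7 pairs exceeded 0.1. Pairs with different numbers had a median of 0.0195 (70 pairs, -0.508 to 0.54), and 20 pairs exceeded 0.1. With the replicate block the WT effect gave 23 members, WT against empty vector under sgPOU2F3 7, L191A against WT 3 and L191A less WT 2; 14 of the 61 named calls were lost. Depth is unknown, so the precision of low members such as UQCRHL cannot be stated, and groups of 2 libraries limit the WT sgPOU2F3 and L191A sgRosa values.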
